A study of Homo sapiens with 15 samples.

Results

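The genes described here encode the proteins with which cells grip and build the extracellular matrix: integrin chains, laminin chains, syndecans, nidogens, fibronectin (FN1), perlecan (HSPG2), agrin (AGRN), dystroglycan (DAG1) and the hyaluronan receptor CD44. They were selected by a rule on gene symbols, and 38 of the 15790 genes in the deposited table matched. These are 10 integrin alpha chains, 7 integrin beta chains, 10 laminin chains, 5 other matrix proteins, 4 syndecans and 2 further receptors.

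RNA was sequenced from 15 libraries in 5 groups of 3. Fibroblast monocultures held fHDF/TERT166, an immortalized line of human dermal fibroblasts. Silk co-cultures held RPTEC/TERT1, an immortalized line of human renal proximal tubular epithelium, together with fHDF/TERT166 on LN/FN-silk, and silk monocultures held RPTEC/TERT1 alone on the same membrane. LN/PC co-cultures held both lines and LN/PC monocultures RPTEC/TERT1 alone, on LN/PC membranes. The silk is a recombinant spider silk, per the series title. The labels do not spell out LN, FN or PC; LN is read here as laminin and FN as fibronectin, and PC is left as it stands. Epithelial cells were seeded at 140000 per cm2 and fibroblasts at 14000 per cm2 (the epithelial medium was used where both were present), and the experiments took place on day 14. A library pooled 3 to 8 membranes. Silk was scraped off its support while LN/PC was cut out with a blade, so the effects of membrane and of harvest cannot be told apart. The fibroblast libraries came from the well bottom; the protocol describes those cells as basolateral and the titles as monocultures, and the titles are followed here. Nothing in the labels says that replicates were separate cultures, so p-values measure only the spread among these libraries, which may be technical.

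Integrins are receptors made of 1 alpha and 1 beta chain that bind matrix proteins outside the cell and connect to actin or keratin filaments inside it. Laminins are trimers of an alpha, a beta and a gamma chain that assemble the basement membrane under epithelia; nidogens, perlecan and agrin tie that sheet together. Syndecans are membrane proteoglycans that bind matrix through heparan sulphate chains. In the kidney tubule the basement membrane lies between the epithelium and the interstitial fibroblasts, and both cell types contribute to the matrix around it.

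Promoter sequence is shown for 4 members on which the results below turn: LAMA3 and LAMB3, epithelial laminin chains, and ITGA5 and FN1, a fibronectin receptor chain and its ligand. The windows are RefSeq's on GRCh38.p14, 250 bases before to 50 after the annotated start, written 5′ to 3′ along the gene's strand. The build used for the deposited table is not given in the sources used here. LAMA3 spans 23689453 to 23955066 on chromosome 18, so the start of its window lies inside the gene. No window at the first base of LAMA3 was among those used, and its counts do not tell its starts apart. Capitals mark a match to TGANTCA, the motif of the AP-1 factors, or to TGACGTCA, the cyclic AMP response element (CRE), searched on both strands; a CRE holds no AP-1 match.
LAMA3, chr18:23872770-23873069, plus strand, with AP-1 matches starting 125 and 69 bases before the start: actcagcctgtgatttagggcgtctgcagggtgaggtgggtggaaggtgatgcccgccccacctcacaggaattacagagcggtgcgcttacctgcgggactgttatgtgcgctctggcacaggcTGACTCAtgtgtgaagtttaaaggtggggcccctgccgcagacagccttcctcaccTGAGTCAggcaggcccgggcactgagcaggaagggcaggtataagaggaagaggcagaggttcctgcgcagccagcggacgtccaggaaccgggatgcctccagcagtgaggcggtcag
LAMB3, chr1:209651325-209651624, minus strand, 1 of its 3 annotated starts, with an AP-1 match 67 bases before the start: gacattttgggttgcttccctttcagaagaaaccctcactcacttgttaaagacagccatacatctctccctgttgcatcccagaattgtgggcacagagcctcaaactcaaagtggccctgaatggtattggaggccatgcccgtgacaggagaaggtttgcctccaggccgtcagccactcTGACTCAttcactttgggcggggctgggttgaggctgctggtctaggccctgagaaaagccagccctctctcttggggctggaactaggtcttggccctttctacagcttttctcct
ITGA5, chr12:54419217-54419516, minus strand, with an AP-1 match 6 bases before the start: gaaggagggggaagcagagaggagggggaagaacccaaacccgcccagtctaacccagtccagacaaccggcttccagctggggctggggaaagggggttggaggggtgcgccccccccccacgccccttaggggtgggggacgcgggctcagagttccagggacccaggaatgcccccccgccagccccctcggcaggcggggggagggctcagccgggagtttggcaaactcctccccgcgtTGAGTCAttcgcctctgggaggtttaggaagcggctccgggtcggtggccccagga
FN1, chr2:215436019-215436318, minus strand, with a CRE match 183 bases before the start: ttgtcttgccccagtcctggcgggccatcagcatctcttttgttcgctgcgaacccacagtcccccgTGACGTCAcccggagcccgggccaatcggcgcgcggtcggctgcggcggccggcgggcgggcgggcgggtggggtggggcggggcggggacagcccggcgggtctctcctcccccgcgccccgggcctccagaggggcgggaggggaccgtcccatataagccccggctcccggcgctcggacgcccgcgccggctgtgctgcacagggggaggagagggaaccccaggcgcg

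RefSeq windows were matched by symbol for 29 of the 38 genes. An AP-1 match was present in 3 of these 29 genes (10.3%), against 9.37% of all 27305 genes with a window, and a CRE match in 1 of 29 (3.45%), against 2.25%. The letters GGAATG, the motif of the TEAD factors, were present in 4 of 29 (13.8%), against 16.7% of all genes. All 3 shares were near those of all genes, and a match describes letters and not a binding site.

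Values are normalized counts obtained by inverting the log2-scale values that the authors deposited, and a log2 difference is on the scale log2(normalized count + 1), given ± its SE, which understates the change of low genes. A gene is called at an adjusted p under 0.05 (limma-trend, Benjamini-Hochberg over all genes tested), and all 38 members passed the filter on low values. ITGA11 and NID1 passed only through the group where they are high, the LN/PC co-cultures in the epithelial fit and the fibroblasts in the other fit, and ITGB2, ITGB4 and ITGB6 passed the fibroblast fit only through the epithelial libraries. These had to differ there, so no p is given for them in those comparisons and counts of calls are also given without them. Counts of members without overlap include them where their libraries were apart. Library totals ran from 9.08 to 12.7 in units of 1e6 normalized counts, and 1 read was worth about 0.75 to 1.325 normalized counts. The summed level of 14 tubule markers did not separate the cell types, at 24178 to 27925 in fibroblasts, against 25974 to 31854 in silk monocultures and 34626 to 40633 in LN/PC monocultures. Of these, CDH1, CDH6, CDH16 and KRT18 were at 0 in every fibroblast library, and KRT18 ran from 2004 to 2966 across the epithelial monocultures. AQP1 ran from 6193 to 6990.2 in fibroblasts and was at most 14.7 in the epithelial monocultures. CUBN ran from 111 to 193 in fibroblasts, against 25.8 to 108 in the epithelial monocultures, so neither marked the epithelium here. Most of the fibroblast sum came from other markers of the list, which are not given by value here. The summed level of 12 fibroblast markers was 496672 to 566586 in fibroblasts, 139 to 776 in silk co-cultures, 114 to 159 in silk monocultures, 94813 to 171258 in LN/PC co-cultures and 57.2 to 109.5 in LN/PC monocultures.

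For each co-culture, a fibroblast RNA share was taken from 108 fibroblast-restricted genes, none of them a member of this gene set, as the median excess over the monocultures of the same membrane in percent of the excess in fibroblasts. It was 0.0257%, 0% and 0.114% in the silk co-cultures and 14.2%, 9.92% and 16.2% in the LN/PC co-cultures. The RNA collected from silk co-cultures therefore held almost no fibroblast RNA. Bulk RNA cannot tell fewer fibroblasts from less RNA per fibroblast. Silk was scraped and LN/PC cut out, so incomplete collection of fibroblasts cannot be told apart from these either. LN/PC monoculture 2 stood apart from its group for several members: its LAMB3 level was 282, against 814 and 1658 in the other LN/PC monocultures, and its ITGB1 level was 16133, against 35008 and 46456. Results that rest on it are given with and without it. Where members called are counted with a library left out, the range over all genes is given in the closing section.

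**Figure D1:**
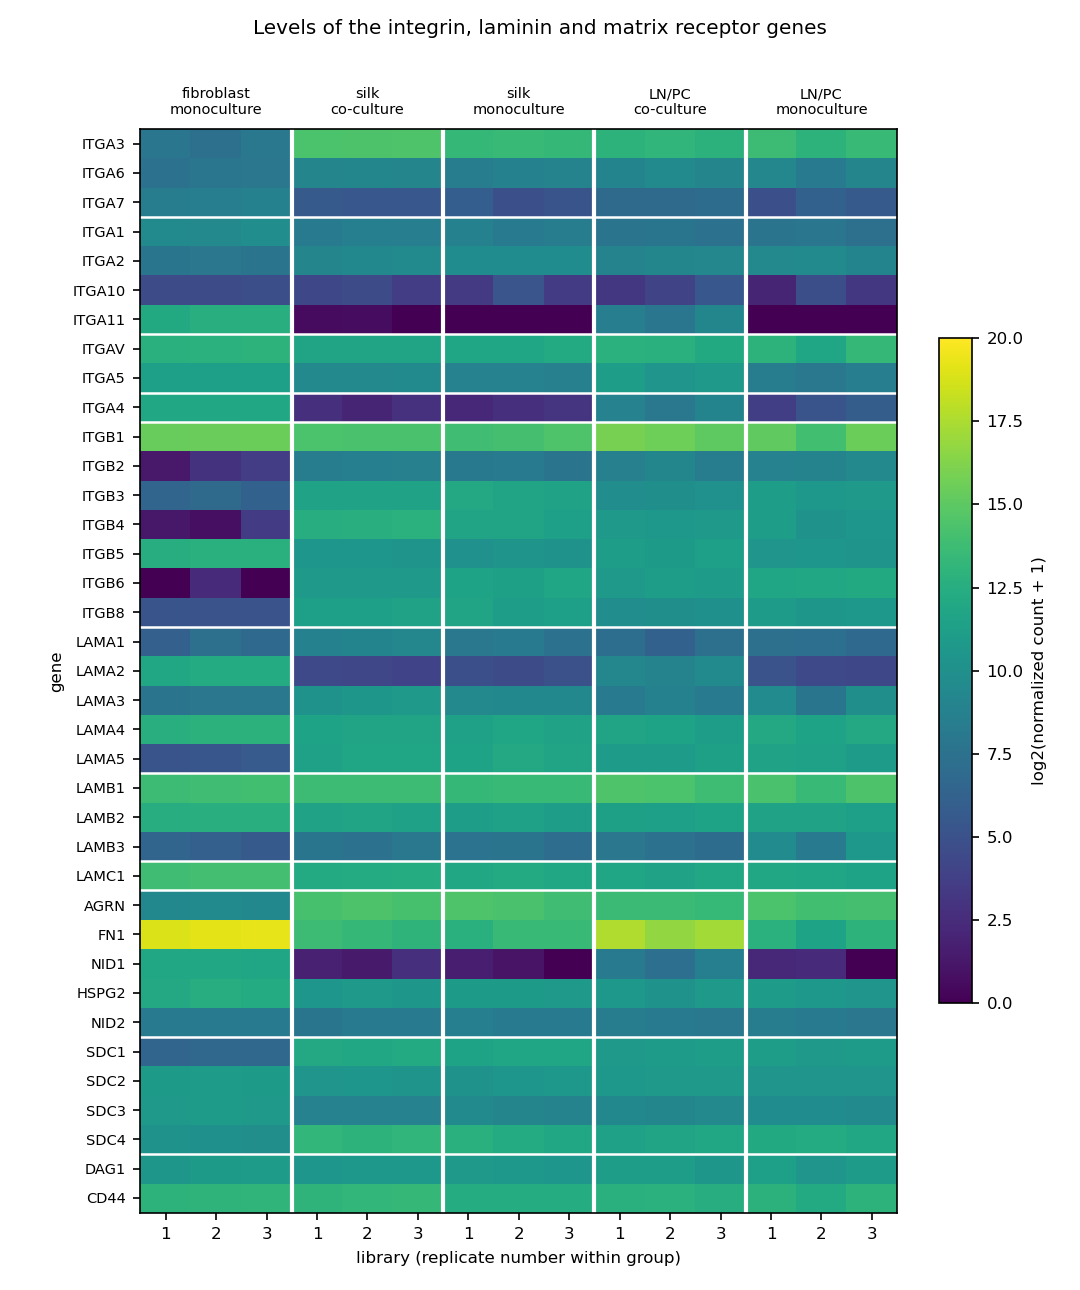
Level of 37 of the 38 genes in every library, as log2(normalized count + 1), with libraries in columns by group and genes in rows by role. NID1, ITGA11, ITGA4 and LAMA2 are bright in fibroblasts and LN/PC co-cultures and dark in the other 3 groups.

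Most members differed in level between fibroblast and epithelial monocultures. The fibroblasts came from the well bottom and the epithelial cells from membranes, so the effects of cell type, substrate and harvest cannot be told apart. The same holds for the medium where it differed. Against the mean of both epithelial monoculture groups, 17 members were called higher in fibroblasts and 16 lower, and 30 of 38 (78.9%) showed no overlap between libraries. The 33 called members are 86.8% of the set, beside 58.3% called of all 14502 genes tested (28.0% higher and 30.3% lower) and 50.0% of genes with libraries that did not overlap. Without the 5 members that passed the filter through 1 side only, 28 of 33 were called (84.8%). These 5 are among the 30 without overlap. The median log2 difference was 0.27 over the members and -0.02 over all genes.

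Among the integrin alpha chains, ITGA11, which with beta1 forms a receptor for fibrillar collagen, had 4654, 6242 and 5930.4 normalized counts in fibroblasts and was at 0 in all 6 epithelial monocultures. Fibroblasts were thus at least 1994-fold higher, counting 3 reads per library as the floor, which covers counting error only. ITGA4, whose product binds fibronectin and VCAM1, had 3984, 3919 and 4157 in fibroblasts, against 3.62 to 59.4 in the epithelial monocultures, a log2 difference of 8.16 ± 0.40 (adjusted p = 8.00e-09). ITGA5, the alpha chain of the classical fibronectin receptor, had 2510.2, 2525 and 2469.7 in fibroblasts, against 249.7 to 476 in the epithelial monocultures (2.72 ± 0.14, adjusted p = 1.16e-08). The groups did not overlap for any of these 3 genes, though ITGA11 had to differ by the filter. ITGA3, which with beta1 binds epithelial laminins, showed the opposite order, with 227, 169.6 and 259 in fibroblasts, against 7789.9 to 13110.4 in the epithelial monocultures (-5.63 ± 0.18, adjusted p = 2.84e-10). Of the other 2 chains known mainly as laminin receptors, ITGA7 was higher in fibroblasts (3.14 ± 0.32) and ITGA6 lower (-1.04 ± 0.23). ITGA1 was higher (1.52 ± 0.16) and ITGA2 lower (-1.72 ± 0.14); both bind collagen.

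ITGB6, ITGB4 and ITGB8, beta chains of epithelial integrins, were low or at 0 in fibroblasts. ITGB6, partner of alphaV in a receptor for latent TGF-beta, had 0, 4.51 and 0 in fibroblasts, against 2663 to 4420.3 in the epithelial monocultures (-10.96 ± 0.45). ITGB4, the hemidesmosome chain that pairs with alpha6, had 1.48, 0.789 and 9.9 in fibroblasts, against 1242 to 3316 in the epithelial monocultures (-9.25 ± 0.47). ITGB8, another alphaV partner, had 36.5, 33.3 and 33.9 in fibroblasts, against 1515 to 3205 in the epithelial monocultures (-5.91 ± 0.15, adjusted p = 3.25e-11). None of the 3 genes overlapped between the cell types, though ITGB6 and ITGB4 had to differ by the filter. ITGB2, the leukocyte integrin chain, was 1.56, 6.7 and 11.6 in fibroblasts, against 204 to 687 in the epithelial monocultures (-5.91 ± 0.41), and ITGB3 was also lower (-4.74 ± 0.17). ITGB5, a vitronectin receptor chain, was the clearest beta chain in the other direction (2.28 ± 0.11). ITGB1, the common partner, was called higher (0.91 ± 0.32) with overlapping libraries.

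The laminin chains divided in the same way. LAMA2, the alpha chain of muscle and mesenchymal laminin, had 3979, 4986 and 5122 in fibroblasts, against 19.1 to 34.4 in the epithelial monocultures (7.46 ± 0.22, adjusted p = 1.12e-10). LAMA5, the main alpha chain of adult epithelial basement membranes, had 35, 39.1 and 52.4 in fibroblasts, against 2074 to 4225 in the epithelial monocultures (-6.15 ± 0.17, adjusted p = 7.49e-11). The libraries of the 2 cell types were apart for both chains. LAMC1 (2.04 ± 0.13), LAMB2 (1.19 ± 0.12) and LAMA4 (1.02 ± 0.15) were higher in fibroblasts, and LAMB3 (-2.38 ± 0.44), LAMA3 (-1.37 ± 0.37) and LAMA1 (-0.76 ± 0.27) were lower. LAMB1 did not pass the test (0.08 ± 0.20).

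Among the linkers and proteoglycans, NID1 (nidogen-1) had 3923, 4007 and 3435 normalized counts in fibroblasts, against 0 to 4.42 in the epithelial monocultures (10.63 ± 0.54), while its relative NID2 did not pass the test (-0.03 ± 0.17). FN1 had 497661, 587151 and 621039 in fibroblasts, against 3185 to 12132 in the epithelial monocultures (6.27 ± 0.32, adjusted p = 1.12e-08). AGRN was lower in fibroblasts (-4.74 ± 0.16) and HSPG2 higher (1.48 ± 0.14). SDC1, the epithelial syndecan, was lower (-4.74 ± 0.12), as was SDC4 (-2.21 ± 0.17), and SDC3 (1.45 ± 0.13) and SDC2 (0.48 ± 0.11) were higher. CD44 was called higher by a small amount (0.45 ± 0.16); DAG1 (-0.01 ± 0.18), ITGAV (0.48 ± 0.27) and ITGA10 (0.94 ± 0.57) were not called. The calls of CD44, LAMA1, ITGB1 and SDC2 did not hold under every alternative; with equal library totals CD44 was at 0.08 and SDC2 at 0.11, against LN/PC monocultures alone LAMA1 was at -0.37 and ITGB1 at 0.56, and none of these 4 values passed.

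**Figure D2:**
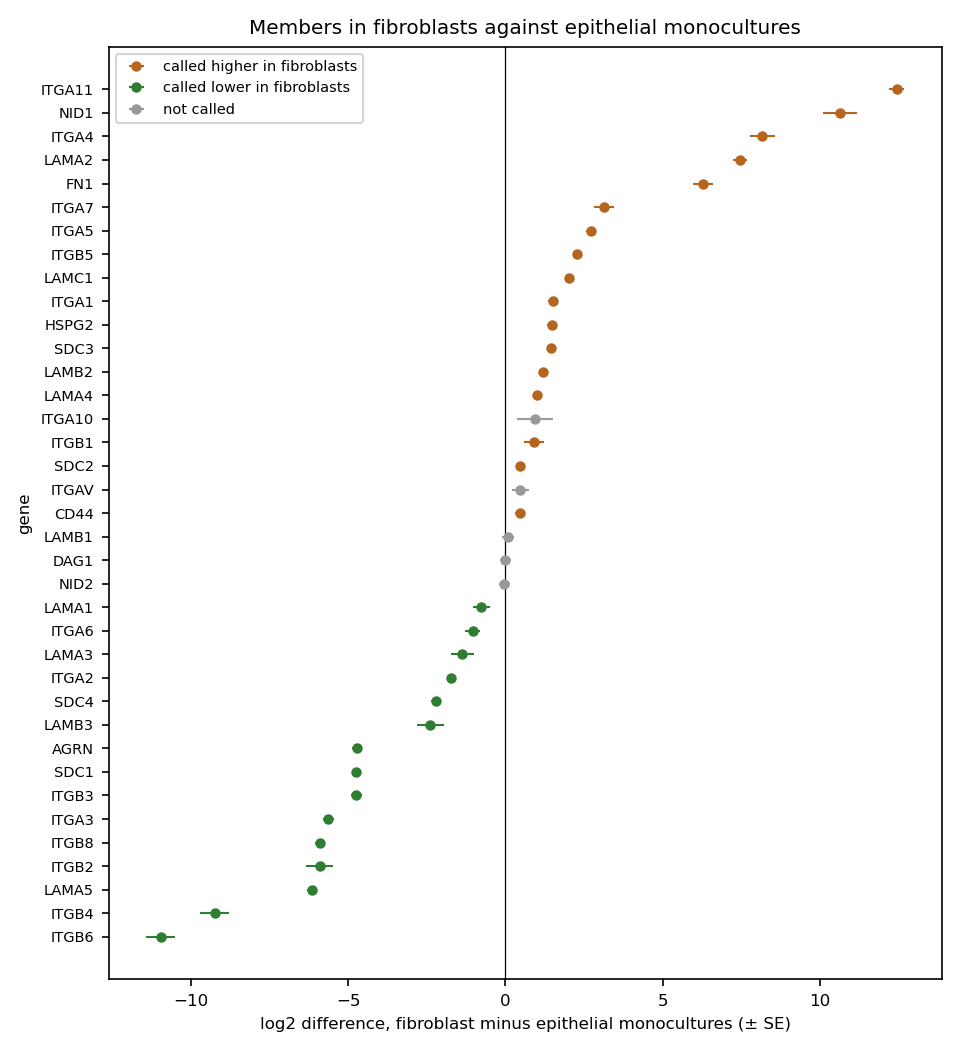
Log2 difference of 37 of the 38 members, fibroblasts minus the mean of both epithelial monoculture groups, with bars for ± SE (9 libraries in the fit) and colours for the call. The values run from -10.96 for ITGB6 at the bottom to NID1 at 10.63 and ITGA11 at the top, whose fitted value depends on the added count because its epithelial libraries are all at 0.

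Per kilobase of transcript (GENCODE 29 length), which allows genes to be set beside each other, ITGB1 had the highest mean level of the 17 integrin chains in every group, from 4859 normalized counts per kilobase in silk monocultures to 12694 in LN/PC co-cultures. The second highest in fibroblasts was ITGB5, at 1432, with ITGA11 nearly level at 1418. In the epithelial groups the second highest was ITGA3: silk co-cultures averaged 4488, silk monocultures 2206, LN/PC co-cultures 1687 and LN/PC monocultures 2234. Of the laminin chains, LAMB1 had the highest level per kilobase in all 5 groups, at 2565 in fibroblasts and between 1955 and 3347 in the epithelial groups. FN1 reached 71995 per kilobase in fibroblasts, the highest of all members. These are descriptions of mean levels, with no test between genes.

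Silk monocultures had more ITGB3, ITGB4, ITGB8, ITGA1 and SDC1 than LN/PC monocultures and less LAMB3, ITGB2, ITGA4 and SDC3. Silk monocultures differed from LN/PC monocultures in 10 of 38 members, 5 higher and 5 lower, a share of 26.3% that stands beside 11.7% of all 14433 genes tested (5.88% higher and 5.79% lower). The libraries of 16 members (42.1%) did not overlap, against 26.4% of all genes. The median log2 difference was 0.03 over the members and 0.03 over all genes.

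ITGB3, which with alphaV forms a vitronectin receptor, had 4226, 3285 and 2979.8 in silk monocultures, against 2214, 1618 and 1749.5 in LN/PC monocultures, a log2 difference of 0.91 ± 0.16 (adjusted p = 0.00239). ITGB4 had 3267, 3316 and 2558 in silk monocultures, against 2430.4, 1242 and 1433 in LN/PC monocultures (0.89 ± 0.20, adjusted p = 0.0115). ITGA1 had 433, 321 and 347 in silk monocultures, against 202, 234 and 167 in LN/PC monocultures (0.86 ± 0.19, adjusted p = 0.00953). In all 3 cases every silk library was above every LN/PC library. SDC1 had 3123, 3596 and 3456 in silk monocultures, against 2317, 1822 and 2101 in LN/PC monocultures (0.71 ± 0.15, adjusted p = 0.00656), and ITGB8 had 3205, 2313 and 2465 in silk monocultures, against 2095, 1515 and 1647 in LN/PC monocultures (0.60 ± 0.16, adjusted p = 0.0257). GENCODE 29 annotates transcripts of other genes over exons of ITGB3 and ITGA1, so how their reads were split is uncertain.

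The lower members included the laminin chain LAMB3. LAMB3 had 199, 212 and 139.9 in silk monocultures, against 814, 282 and 1658 in LN/PC monocultures (-2.00 ± 0.43, adjusted p = 0.00864). LAMA3, its partner in an epithelial laminin, was not called: it had 686, 629 and 638 in silk monocultures, against 785, 222 and 999 in LN/PC monocultures (0.22 ± 0.37). The LN/PC values of both chains were lowest in LN/PC monoculture 2, and without that library LAMB3 was at -2.68. ITGB2 had 277, 318 and 204 in silk monocultures, against 469.9, 502 and 687 in LN/PC monocultures (-1.06 ± 0.22, adjusted p = 0.00689), and SDC3 had 703, 552 and 502 in silk monocultures, against 838, 854 and 769 in LN/PC monocultures (-0.50 ± 0.15, adjusted p = 0.0413). The call of SDC3 was lost under 13 of the alternatives, among them equal library totals (-0.39) and upper quartile scaling (-0.42). ITGA4 was low throughout and had 3.62, 5.72 and 7.23 in silk monocultures, against 12.3, 36 and 59.4 in LN/PC monocultures (-2.29 ± 0.50, adjusted p = 0.00898). No libraries overlapped for LAMB3, ITGB2, SDC3 or ITGA4. The 28 members not called lay between -0.80 (ITGAV) and 0.81 (FN1).

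The number of members called depended on single LN/PC monocultures: it was 16 without LN/PC monoculture 2 and 6 without LN/PC monoculture 3. The number called over all genes also rose without the first and fell without the second, so this is not particular to the members. Without LN/PC monoculture 2, CD44 (-0.52), LAMB1 (-0.88), LAMA4 (-0.49), ITGAV (-1.23), ITGB1 (-1.16) and DAG1 (-0.52) were also called lower and ITGA2 (0.52) higher, and SDC3 (-0.47) was not called. Without LN/PC monoculture 3, LAMB3 was at -1.40 and still called, and ITGB8 (0.56), ITGB4 (0.80) and SDC3 (-0.54) were not. ITGB8 was also lost without silk monoculture 1 (0.46). ITGA4 was at -2.90 without LN/PC monoculture 1.

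**Figure D3:**
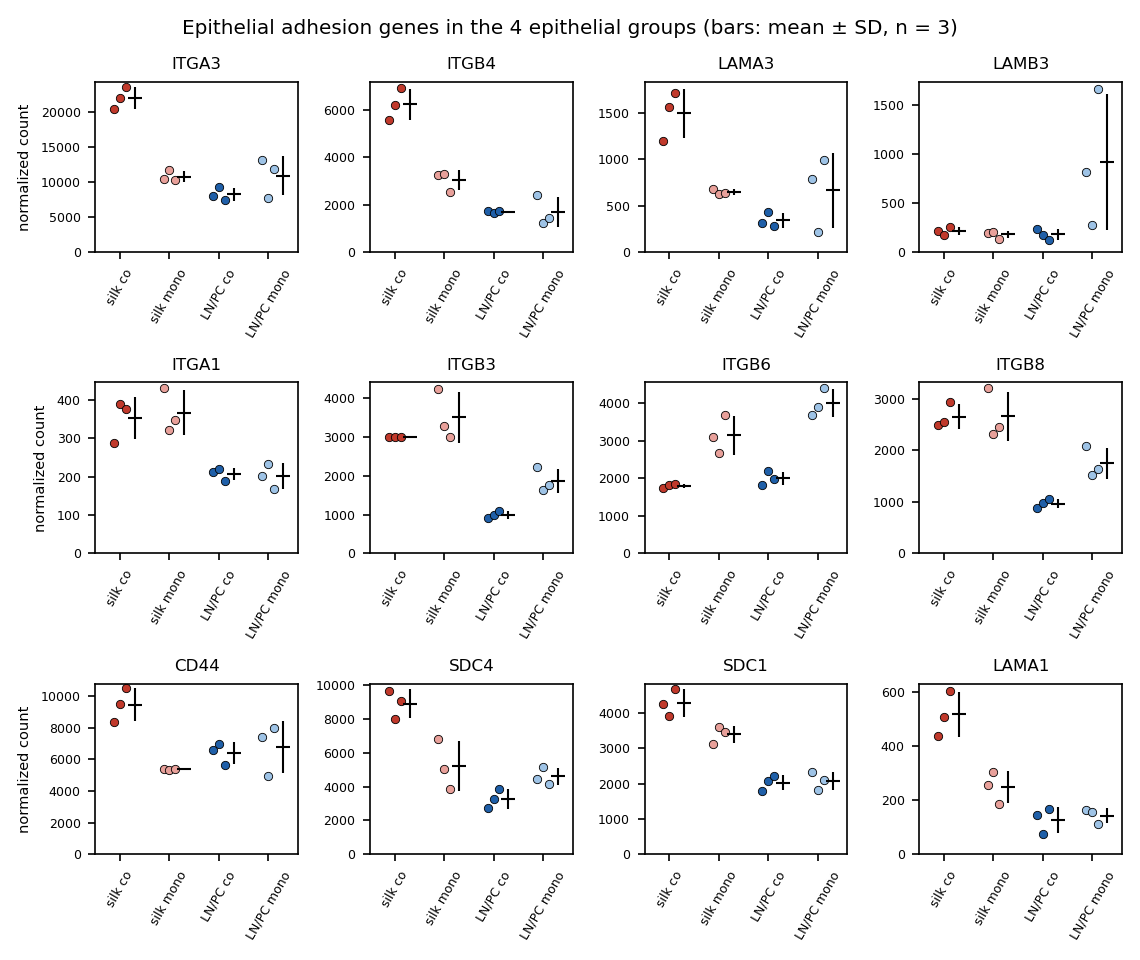
Normalized counts of 12 members in the 4 epithelial groups, each axis starting at 0, with 1 point per library and the mean ± SD (n = 3) beside it. ITGA3, ITGB4 and LAMA1 are highest in the 3 silk co-cultures, and LAMB3 spreads from 282 to 1658 within LN/PC monocultures.

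On silk, ITGA3 and ITGB4, chains of epithelial laminin receptors, were higher in co-cultures than in monocultures. The fibroblast RNA share of these co-cultures was 0.0466% ± 0.0599 (SD, n = 3), or 0.121% from the summed markers. CD68, the 1 of 6 leukocyte markers in the table, ran from 757 to 885 in silk co-cultures, against 85.8 to 196 in silk monocultures, and was 523 to 581 in fibroblasts; its part in these differences was not tested. Silk co-cultures differed from silk monocultures in 6 of 38 members, 5 higher and 1 lower, or 15.8%, beside 3.78% of all genes tested (2.91% higher and 0.866% lower). The libraries of 19 members (50%) did not overlap, against 27.1% of all genes. The median log2 difference was 0.14 over the members and 0.00 over all genes.

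ITGA3 had 20377, 21982 and 23448 in silk co-cultures, against 10435, 11685 and 10231 in silk monocultures (1.02 ± 0.20, adjusted p = 0.0077). ITGB4 had 5576, 6185 and 6893 in silk co-cultures, against 3267, 3316 and 2558 in silk monocultures (1.03 ± 0.20, adjusted p = 0.00751). LAMA1, the alpha chain best known from early and tubular basement membranes, had 439, 509 and 605 in silk co-cultures, against 256, 306 and 185 in silk monocultures (1.07 ± 0.28, adjusted p = 0.044). All 3 silk co-cultures stood above all 3 silk monocultures for each gene. CD44 had 8375, 9478 and 10487 in silk co-cultures, against 5395, 5311 and 5394 in silk monocultures (0.81 ± 0.19, adjusted p = 0.0205), and SDC4, a syndecan of focal adhesions, had 9632, 7953 and 9021 in silk co-cultures, against 6784, 5026 and 3871 in silk monocultures (0.80 ± 0.20, adjusted p = 0.0317). ITGB6 was the 1 lower member, with 1750.3, 1819 and 1845 in silk co-cultures, against 3096, 2663 and 3691 in silk monocultures (-0.79 ± 0.15, adjusted p = 0.00534).

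The 32 members not called lay between -0.61 (LAMA2) and 1.18 (LAMA3). LAMA3 had 1199.7, 1568 and 1719 in silk co-cultures, against 686, 629 and 638 in silk monocultures, without overlap, but the difference of 1.18 ± 0.37 did not pass (adjusted p = 0.0968). ITGA5 had 676, 670.1 and 777 in silk co-cultures, against 464, 476 and 415 in silk monocultures, also without overlap and not called (0.65 ± 0.19, adjusted p = 0.0732). The spread shared by the 12 libraries included LN/PC monoculture 2, and without that library both were called, with the same differences. Of the members called higher in fibroblasts, CD44 alone was called here. FN1 averaged 10562 ± 2332 in silk co-cultures and 10017 ± 2926 in silk monocultures (SD, n = 3 each), NID1 averaged 3.25 ± 1.94 in silk co-cultures and 1.1 ± 1.1 in silk monocultures, and ITGA11 was 0.521, 0.543 and 0 in silk co-cultures, about 1 read in all, against 0 in each silk monoculture. ITGB6 was called under every alternative; without silk co-culture 3 it was the 1 member still called, ITGA3 being at 0.98, ITGB4 at 0.96, CD44 at 0.73, LAMA1 at 0.95 and SDC4 at 0.78. CD44 was lost as well without silk monoculture 2 or 3 or silk co-culture 2 (0.80, 0.81 and 0.80). SDC4 was lost without silk monoculture 2 or 3 or any silk co-culture (0.60 to 1.00 over all libraries left out), and LAMA1 without any silk library or LN/PC monoculture 1 (0.87 to 1.23). LAMA1 and SDC4 were also not called with equal library totals (0.94 and 0.66).

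On LN/PC, 8 of the 17 members called higher in fibroblasts were higher in co-cultures than in monocultures, and 5 members called lower in fibroblasts were lower. How many of all genes called in fibroblasts moved in this way was not counted. LN/PC co-cultures differed from LN/PC monocultures in 13 of 38 members, 8 higher and 5 lower, or 34.2%, beside 12.5% of all genes tested (7.80% higher and 4.72% lower). Without ITGA11 and NID1 it was 11 of 36 (30.6%). The libraries of 17 members (44.7%), ITGA11 and NID1 among them, did not overlap, against 25.9% of all genes. The median log2 difference was -0.04 over the members and -0.04 over all genes. With equal library totals the split was 8 higher and 10 lower, because ITGA3, LAMA4, SDC4, SDC3 and AGRN were then called lower.

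All 8 higher members were among those higher in fibroblasts. FN1 had 202217, 109861 and 153311 in LN/PC co-cultures, against 6956, 3185 and 7683 in LN/PC monocultures (4.76 ± 0.33, adjusted p = 3.79e-08). NID1 had 300.0, 157 and 397 in LN/PC co-cultures, against 4.02, 4.42 and 0 in LN/PC monocultures (6.47 ± 0.67). LAMA2 had 626, 483 and 742 in LN/PC co-cultures, against 34.4, 20.6 and 19.1 in LN/PC monocultures (4.61 ± 0.30, adjusted p = 1.91e-08). These 3 matrix genes were far above every LN/PC monoculture in all 3 co-cultures, though NID1 had to differ by the filter. ITGA11 had 368, 233 and 566 in LN/PC co-cultures, at least 138-fold higher by the floor of 3 reads per library, since all LN/PC monocultures were at 0. ITGA4 had 465, 255 and 528 in LN/PC co-cultures, against 12.3, 36 and 59.4 in LN/PC monocultures (3.68 ± 0.50, adjusted p = 6.12e-05). ITGA5 had 2277, 1363 and 1848 in LN/PC co-cultures, against 359, 249.7 and 367 in LN/PC monocultures (2.48 ± 0.19, adjusted p = 1.15e-07). Each of these receptor chains was lowest in LN/PC co-culture 2, the library with the lowest fibroblast share. ITGA11 and ITGA4 were highest in LN/PC co-culture 3, the library with the highest share, and ITGA5 in LN/PC co-culture 1. The part of the share in these levels was not tested. ITGA7 had 121, 118 and 135 in LN/PC co-cultures, against 28.2, 72.8 and 50.5 in LN/PC monocultures (1.38 ± 0.35, adjusted p = 0.0161), and ITGB5 was higher by 0.69 ± 0.14 (adjusted p = 0.00267). The 25 members not called lay between -0.71 (LAMA3) and 0.88 (ITGA10).

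The lower members included epithelial laminin and integrin chains. LAMB3 had 239, 177 and 130.4 in LN/PC co-cultures, against 814, 282 and 1658 in LN/PC monocultures (-2.03 ± 0.43, adjusted p = 0.00448). ITGB6 had 1836, 2194 and 1969 in LN/PC co-cultures, against 3688, 3897 and 4420.3 in LN/PC monocultures (-1.00 ± 0.15, adjusted p = 1.52e-04). Libraries of the 2 groups were apart for both genes. ITGB3 had 900.0, 986 and 1101 in LN/PC co-cultures, against 2214, 1618 and 1749.5 in LN/PC monocultures (-0.89 ± 0.16, adjusted p = 0.00104), and ITGB8 had 889.9, 972 and 1048 in LN/PC co-cultures, against 2095, 1515 and 1647 in LN/PC monocultures (-0.84 ± 0.16, adjusted p = 0.0019). Over 70 epithelium-restricted genes outside this set, the median log2 ratio of LN/PC co-cultures to LN/PC monocultures was -0.43, with 61 of the 70 below 0 at a fibroblast RNA share of 13.4% ± 3.19 (SD, n = 3); the part of these 2 shifts in the lower members was not tested. Without LN/PC monoculture 2, 17 members were called: LAMA3 (-1.37), ITGA3 (-0.60), LAMA4 (-0.59) and ITGAV (-0.62) were then lower too, and LAMB3 was at -2.71, against -1.43 without LN/PC monoculture 3. NID1 was at 5.68 without LN/PC monoculture 3 and ITGA4 at 3.07 without LN/PC monoculture 1; ITGA7 was not called without LN/PC monoculture 1 (1.02), LN/PC co-culture 1 (1.40) or LN/PC co-culture 3 (1.33).

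The members high in fibroblasts did not all appear in LN/PC co-cultures to the same degree. For the 14 members over 1 on the log2 scale in fibroblasts, the excess of each LN/PC co-culture over the LN/PC monocultures was expressed in percent of the fibroblast excess, the measure used for the fibroblast share of 14.2%, 9.92% and 16.2%. ITGA5 reached 89.7%, 47.7% and 70.0%, with a mean of 69.1% ± 21.0 (SD, n = 3). FN1 reached 34.9%, 18.5% and 26.2%, with a mean of 26.5% ± 8.21 (SD, n = 3). ITGA7 averaged 21.7% ± 2.62 and ITGB5 17.8% ± 6.58 (SD, n = 3 each). All 4 were above the fibroblast share in each of the 3 libraries. That share is a median, and the 108 genes spread around it. Between quartiles they ran from 6.67% to 23.2% (LN/PC co-culture 1), 4.33% to 15.3% (LN/PC co-culture 2) and 8.94% to 26.4% (LN/PC co-culture 3). Only ITGA5 was above this range in every library. FN1 lay within it for LN/PC co-culture 3, ITGA7 for LN/PC co-cultures 1 and 3, and ITGB5 throughout. Against the share from the summed markers, 22.6%, 14.6% and 26.0%, ITGA5 was above in each library, FN1 too but at nearly the same level in LN/PC co-culture 3 (26.2%), ITGA7 in 1 library, and ITGB5 was below in each. LAMA2 averaged 12.7% ± 2.78, ITGA4 9.54% ± 3.59, NID1 7.45% ± 3.18 and ITGA11 6.93% ± 2.98 (SD, n = 3 each), close to or under the share. ITGA1, LAMC1, LAMB2, HSPG2, SDC3 and LAMA4 lay between 0.93% and -32.7% on average, each below the fibroblast share.

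**Figure D4:**
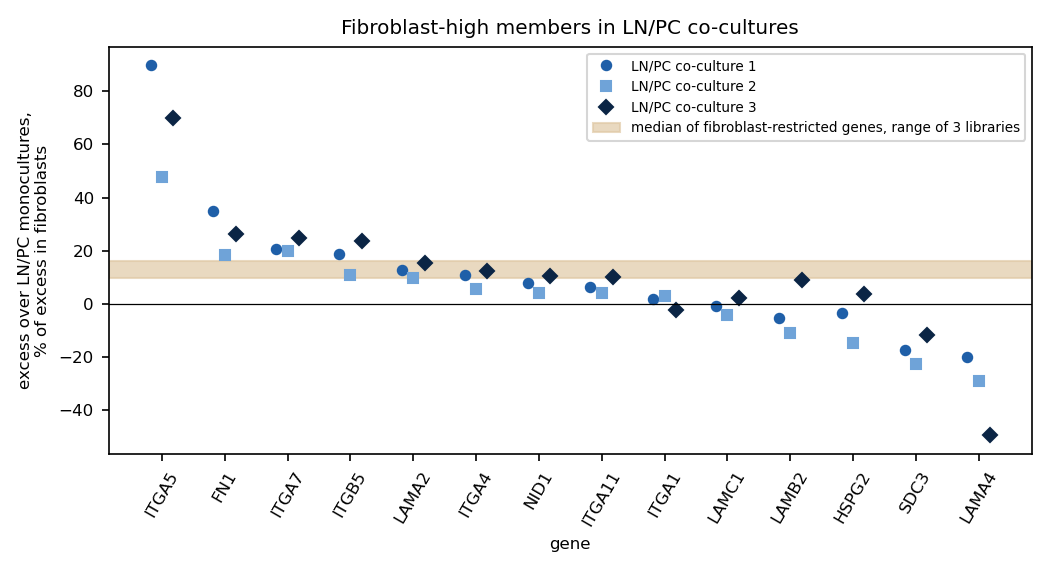
Excess of each LN/PC co-culture over the mean of LN/PC monocultures for 14 members, in percent of the excess in fibroblasts, with 1 marker per library and a band for the range of the median of 108 fibroblast-restricted genes over the 3 libraries. ITGA5 lies above the band in every library (47.7% to 89.7%) and LAMA4 below 0 in every library.

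Between the co-cultures, 10 of the 17 members called higher in fibroblasts were lower on silk and CD44, ITGA1 and LAMC1 were higher. Of the 16 members called lower in fibroblasts, 11 were higher on silk. The same counts were not made over all genes called in fibroblasts, so they are not read as particular to this set. Silk co-cultures differed from LN/PC co-cultures in 25 of 38 members, 14 higher and 11 lower, or 65.8%, beside 36.1% of all genes tested (18.5% higher and 17.6% lower). Without ITGA11 and NID1 it was 23 of 36 (63.9%). The libraries of 27 members (71.1%), ITGA11 and NID1 among them, did not overlap, against 53.7% of all genes. The median log2 difference was -0.01 over the members and 0.03 over all genes.

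Of the higher members, LAMA3 had 1199.7, 1568 and 1719 in silk co-cultures, against 320.2, 438 and 285 in LN/PC co-cultures (2.11 ± 0.37, adjusted p = 4.99e-04). LAMA1 had 439, 509 and 605 in silk co-cultures, against 146, 73.9 and 166 in LN/PC co-cultures (2.07 ± 0.28, adjusted p = 4.39e-05). ITGB4 had 5576, 6185 and 6893 in silk co-cultures, against 1720.0, 1657 and 1747 in LN/PC co-cultures (1.86 ± 0.20, adjusted p = 4.95e-06). Each silk co-culture was at least 2 times as high as any LN/PC co-culture for these 3 genes. ITGB3 had 2986, 3002 and 2988 in silk co-cultures, against 900.0, 986 and 1101 in LN/PC co-cultures (1.59 ± 0.16, adjusted p = 2.15e-06). ITGB8 had 2488, 2550.2 and 2932 in silk co-cultures, against 889.9, 972 and 1048 in LN/PC co-cultures (1.45 ± 0.16, adjusted p = 5.62e-06), and SDC4 had 9632, 7953 and 9021 in silk co-cultures, against 2718, 3248 and 3875 in LN/PC co-cultures (1.45 ± 0.20, adjusted p = 4.73e-05). ITGA3 (1.41 ± 0.20), SDC1 (1.08 ± 0.15), ITGA1 (0.76 ± 0.19), AGRN (0.68 ± 0.20), LAMC1 (0.60 ± 0.15), LAMA5 (0.58 ± 0.18) and CD44 (0.56 ± 0.19) were also higher. The same 70 epithelium-restricted genes had a median log2 ratio of 0.11 between these groups.

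Of the 11 lower members, 10 were called higher in fibroblasts, the exception being ITGAV, and the fibroblast RNA share averaged 0.0466% over the silk co-cultures and 13.4% over the LN/PC co-cultures; its part in these differences was not tested. ITGA4 had 5.43, 3.11 and 6.41 in silk co-cultures, against 465, 255 and 528 in LN/PC co-cultures (-6.10 ± 0.50, adjusted p = 2.53e-07). NID1 had 2.53, 1.78 and 5.44 in silk co-cultures, against 300.0, 157 and 397 in LN/PC co-cultures (-6.07 ± 0.67), and LAMA2 had 20.1, 17.8 and 14.9 in silk co-cultures, against 626, 483 and 742 in LN/PC co-cultures (-5.04 ± 0.30, adjusted p = 1.23e-08). None of these overlapped, though NID1 had to differ by the filter. FN1 had 13069, 10161 and 8457 in silk co-cultures, against 202217, 109861 and 153311 in LN/PC co-cultures (-3.86 ± 0.33, adjusted p = 4.40e-07), and ITGA7 had 50.1, 42 and 41.1 in silk co-cultures, against 121, 118 and 135 in LN/PC co-cultures (-1.47 ± 0.35, adjusted p = 0.00467). ITGA11, at about 1 read over the silk co-cultures, had 368, 233 and 566 in LN/PC co-cultures. ITGA5 (-1.34 ± 0.19), ITGB1 (-1.22 ± 0.34), ITGAV (-0.83 ± 0.28), ITGB5 (-0.69 ± 0.14) and SDC3 (-0.47 ± 0.15) were also lower. LAMB3 was not called, with 213, 176 and 255 in silk co-cultures, against 239, 177 and 130.4 in LN/PC co-cultures (0.26 ± 0.43), and the 13 members not called lay between -0.49 (LAMB1) and 0.26 (LAMB3). Leaving out 1 library ended the calls of ITGB1 (LN/PC co-culture 1, -1.01), AGRN (silk co-culture 2, 0.61), and, for at least 4 libraries each, CD44 (0.47 to 0.64), LAMA5 (0.49 to 0.70), ITGAV (-1.03 to -0.72) and SDC3 (-0.54 to -0.41). Without LN/PC co-culture 1, 17 of 36 members were called, ITGA11 and NID1 not being tested there.

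**Figure D5:**
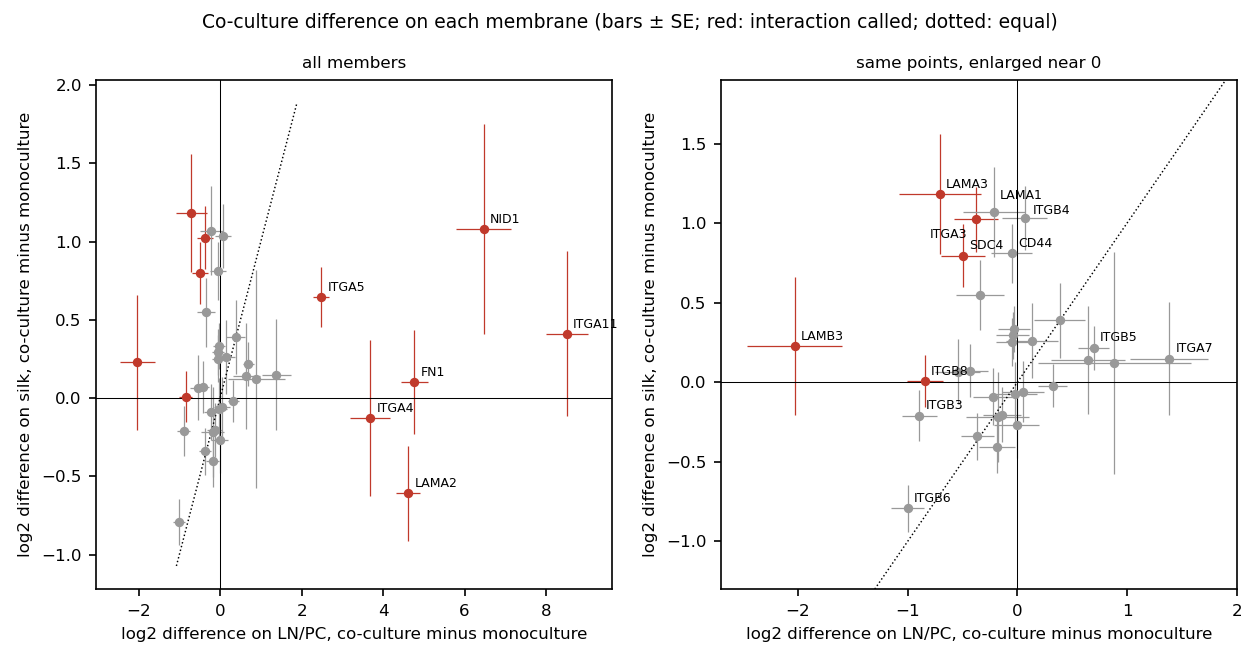
Log2 difference of co-culture minus monoculture on LN/PC (horizontal) and on silk (vertical) for 37 of the 38 members, with bars for ± SE, red where the 2 differences differed by the interaction test and a dotted line of equal values. LAMA3, ITGA3 and SDC4 lie above the line and left of 0, and FN1, NID1, LAMA2, ITGA4, ITGA5 and ITGA11 far to the right; the fitted value of ITGA11 depends on the added count.

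The effect of adding fibroblasts was then compared between membranes by the interaction, the difference on silk minus that on LN/PC, which shares its libraries with the comparisons above. It was called for 12 of 38 members, 6 higher and 6 lower, or 31.6%, beside 7.73% of all genes tested (3.15% higher and 4.59% lower); without ITGA11 and NID1 it was 10 of 36 (27.8%). The 26 members not called lay between -1.24 (ITGA7) and 1.29 (LAMA1). The 6 lower ones were ITGA11, NID1 (-5.39 ± 0.95), LAMA2 (-5.22 ± 0.43), FN1 (-4.66 ± 0.47), ITGA4 (-3.81 ± 0.71) and ITGA5 (-1.83 ± 0.27), all higher in fibroblasts, whose RNA share differed between the membranes as given above. The higher ones included the laminin chains LAMB3 (2.26 ± 0.61, adjusted p = 0.0315) and LAMA3 (1.89 ± 0.53, adjusted p = 0.0379), together with ITGA3 (1.40 ± 0.29, adjusted p = 0.00507), SDC4 (1.29 ± 0.28, adjusted p = 0.00786) and ITGB8 (0.85 ± 0.23, adjusted p = 0.0304). Co-culture differences for ITGA3 were 1.02 ± 0.20 on silk and -0.38 ± 0.20 on LN/PC, and those for LAMA3 were 1.18 ± 0.37 and -0.71 ± 0.37 in the same order. ITGB6 was lower in co-culture on both membranes, by -0.79 ± 0.15 on silk and -1.00 ± 0.15 on LN/PC, and its interaction of 0.21 ± 0.21 was not called. ITGB4 (0.97 ± 0.29, adjusted p = 0.0502), CD44 (0.86 ± 0.26, adjusted p = 0.0566) and LAMA1 (1.29 ± 0.40, adjusted p = 0.0598) did not pass. When 1 of the 12 libraries was left out, LAMB3 lost its call for 6 of them (1.66 to 2.94 over all 12), LAMA3 for 8 (1.47 to 2.55) and ITGB8 for 7 (0.72 to 0.99). Without LN/PC monoculture 2, LAMB3 (2.94) and LAMA3 (2.55) were called, as were ITGB4 (1.16), CD44 (1.08) and ITGB3 (0.78), for 15 members in all. ITGA4 was at -3.20 without LN/PC monoculture 1 and NID1 at -4.60 without LN/PC monoculture 3.

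Genes that work with these receptors were read from 7 lists. Of 27 focal adhesion genes tested, 3 were called in silk monocultures against LN/PC monocultures, all lower: TNS3 (-1.00 ± 0.17), VASP (-0.71 ± 0.18) and PTK2, the focal adhesion kinase (-0.70 ± 0.20). That is 11.1% of the list, near the 11.7% of all genes. In silk co-cultures against silk monocultures 2 were lower (7.41%, beside 3.78% of all genes), NEDD9 (-1.00 ± 0.23) and TNS1 (-0.91 ± 0.19), and in silk co-cultures against LN/PC co-cultures 3 were higher and 8 lower (40.7%, beside 36.1% of all genes), led by PARVB (-2.71 ± 0.41) and CAV1 (-1.93 ± 0.37). Both of these were higher in LN/PC co-cultures against LN/PC monocultures (3.35 ± 0.41 and 3.71 ± 0.37), where 3 were higher and 3 lower (22.2%, beside 12.5% of all genes), and in fibroblasts against epithelial monocultures (4.22 ± 0.27 and 4.58 ± 0.33). Of 8 hemidesmosome and tetraspanin partners, LAD1 (-0.76 ± 0.16) and CD81 (-0.56 ± 0.15) were lower in silk monocultures against LN/PC monocultures (25%, beside 11.7% of all genes). LAD1 alone was called, as lower, in LN/PC co-cultures against LN/PC monocultures (-0.93 ± 0.16), or 12.5% of the list beside 12.5% of all genes. In silk co-cultures against silk monocultures 0 of the 8 were called, beside 3.78% of all genes. Between silk and LN/PC co-cultures 2 were lower and 0 higher (25%, under the 36.1% of all genes). COL17A1, the hemidesmosome collagen, was at 0 in fibroblasts and averaged 177 ± 70.7 in the epithelial monocultures (SD, n = 6).

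The basement membrane list, 17 genes tested, held 4 higher and 2 lower genes in silk monocultures against LN/PC monocultures (35.3%, beside 11.7% of all genes), with HMCN1 (2.50 ± 0.49) and COL4A3 (0.86 ± 0.19) higher and PAPLN (-1.33 ± 0.20) lower. In silk co-cultures against silk monocultures COL4A5 was lower (-0.53 ± 0.14) and SPARC, named after its values were seen, higher at a low level, 30.9 ± 11.5 against 4.15 ± 1.31 (SD, n = 3 each). In LN/PC co-cultures against LN/PC monocultures 3 were higher and 8 lower (64.7%, beside 12.5% of all genes): SPARC, a matrix protein high in fibroblasts here, was higher (9.14 ± 0.34) and COL4A1, a chain of the main basement membrane collagen, lower (-1.13 ± 0.25). In silk co-cultures against LN/PC co-cultures 7 were higher and 2 lower (52.9%, beside 36.1% of all genes), with a median of 0.54 over the list and 0.03 over all genes tested. Of 22 other integrin ligands tested, 12 were higher and 2 lower in LN/PC co-cultures against LN/PC monocultures (63.6%, beside 12.5% of all genes), and POSTN (periostin), for one, averaged 1182 ± 475 in LN/PC co-cultures (SD, n = 3) and was at 0 in every LN/PC monoculture. In silk co-cultures against silk monocultures 2 were higher (9.09%, beside 3.78% of all genes), TGFBI (1.03 ± 0.18) and CCN1 (0.82 ± 0.22). In silk monocultures against LN/PC monocultures THBS1 was higher (1.39 ± 0.32) and MFGE8 lower (-0.85 ± 0.25). These made up 9.09% of the list, under the 11.7% of all genes.

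Of 12 other matrix receptors, 3 were higher and 2 lower in silk monocultures against LN/PC monocultures (41.7%, beside 11.7% of all genes): the glypicans GPC6 (1.47 ± 0.24) and GPC4 (0.73 ± 0.22) and the adhesion molecule MCAM (0.96 ± 0.28) were higher and the glypicans GPC3 (-2.20 ± 0.22) and GPC1 (-0.98 ± 0.17) lower. GPC3 was higher in silk co-cultures against silk monocultures (0.86 ± 0.22). DDR2, a collagen receptor, averaged 1341 ± 432 in LN/PC co-cultures and 0.734 ± 0.82 in LN/PC monocultures (SD, n = 3 each). Of 9 hyaluronan genes, HAS3, a hyaluronan synthase, was higher in silk co-cultures against LN/PC co-cultures (2.21 ± 0.25) and lower in LN/PC co-cultures against LN/PC monocultures (-1.02 ± 0.25). VCAN, which binds hyaluronan, was higher on silk in monocultures (0.68 ± 0.22) and in co-cultures (0.87 ± 0.22). Silk against LN/PC, the share called was 11.1% in monocultures (11.7% of all genes) and 33.3% in co-cultures (36.1% of all genes), both near those of all genes. In LN/PC co-cultures against LN/PC monocultures the share was 22.2%, beside 12.5% of all genes. Of 18 genes of the dystroglycan complex and its glycosylation, 3 were called in silk monocultures against LN/PC monocultures, all lower, among them POMGNT1 (-0.87 ± 0.26) and RXYLT1 (-0.81 ± 0.21). That is 16.7% of the list, beside 11.7% of all genes. DAG1 itself was not called in the 4 pairwise comparisons of epithelial groups with all libraries, where its log2 differences lay between -0.32 and -0.02.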

How the data were processed

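Per the labels' protocols, poly-A RNA was sequenced with a strand-keeping kit on a NovaSeqX plus. Salmon 1.10.3 and DESeq2 are named in the submitters' processing notes; the sources used here do not give the genome build, annotation or settings. The table the authors deposited holds log2-scale values of 15790 genes in 15 columns, with a floor of 5.53664461 in every library, as a variance-stabilizing transformation gives. That transformation was inverted with this floor to give normalized counts, a value at the floor becoming 0; the 13121 genes above it in all libraries then gave the same median ratio, 1.0117, in each library. Whole reads were not recovered, since only 24.8% to 39.7% of low values were whole to within 0.1 read, and count models were therefore not used. Reads per library were about 8.84 to 14.8 in units of 1e6; floors and intervals cover counting error only, and PCR reads carry no molecular identifiers.

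Genes with at least 10 in at least 3 libraries were tested with limma-trend on log2(normalized count + 1), with limma 3.58.1 under R 4.3.3: 14433 genes in a fit of the 12 epithelial libraries and 14502 in a fit of 9 libraries with the fibroblasts. P-values were Benjamini-Hochberg adjusted over all genes of a comparison. The script was tested on simulated data. Fibroblast-restricted genes averaged 1000 or more in fibroblasts and 100 times or more the mean of each epithelial monoculture group. All members could be named; values per library are given for up to 12 called members a comparison whose higher group averaged 100 or more and whose libraries did not overlap, and up to 4 called genes of each list; members not called are given as values or ranges. ITGA4 between the monocultures lies outside this rule and was named after its values were seen. Counts cover all members, but 1 member and a few listed genes are not reported here by value. The members and lists were chosen with earlier results of these data known. Alternatives were other pseudocounts (0.5 and 5), no filter, the deposited log2 values, other scalings, smaller fits, a replicate block and leaving out each library.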

Additional observations from a re-analysis of the deposited data

Results flagged for a closer look

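For 11 members the difference between co-culture and monoculture on silk was unlike that on LN/PC by the interaction test of limma. Adjusted over all 14433 genes, the test called 7.73% of them. The value given is the difference on silk minus the difference on LN/PC, log2 scale. It was -8.105 for ITGA11, a fitted value that depends on the added count because the LN/PC monocultures are at 0, -5.392 for NID1, which like ITGA11 passed the filter on low values only through the LN/PC co-cultures, -5.222 for LAMA2, -4.662 for FN1, -3.811 for ITGA4 and -1.831 for ITGA5. It was 2.259 for LAMB3, 1.89 for LAMA3, 1.401 for ITGA3, 1.293 for SDC4 and 0.8508 for ITGB8. With 1 library left out, LAMB3 lost its call in 6 fits, LAMA3 in 8 and ITGB8 in 7. On silk alone, the co-culture difference was 0.23 for LAMB3 and 0.01 for ITGB8, neither called.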

How the results depend on the processing

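Pseudocounts of 0.5 and 5 and the deposited log2 values tested as they stand ended no call of a member, and no called value changed sign under any alternative. Of the called members tested under every alternative, 6 of 10 (silk against LN/PC monocultures), 16 of 23 (silk against LN/PC co-cultures), 1 of 6 (silk co-cultures against silk monocultures), 10 of 11 (LN/PC co-cultures against LN/PC monocultures), 7 of 10 (interaction) and 27 of 31 (fibroblasts) held their call in all. ITGA11 and NID1 were not tested when a library of their high group was left out, so counts there are over 36 members. With only the 6 libraries compared, 754, 1174 and 1088 genes were called in silk monocultures against LN/PC monocultures, silk co-cultures against silk monocultures and LN/PC co-cultures against LN/PC monocultures, against 1685, 545 and 1807; the cause was not tested. Leaving out each library gave 695 to 3208, 207 to 819 and 753 to 2007 genes in those 3 comparisons, 3415 to 5732 in silk against LN/PC co-cultures and 465 to 1359 in the interaction; members called ran from 6 to 16, 1 to 8, 10 to 17, 17 to 26 and 8 to 15 in the same order, and from 28 to 34 in fibroblasts. The upper ends of 3208 and 16 came without LN/PC monoculture 2 and the lower ends of 695 and 6 without LN/PC monoculture 3, and the single member called came without silk co-culture 3. Gene counts moved by over 1.5 times without silk monocultures 1 (881), 2 (1041) or 3 (1039) or LN/PC monoculture 1 (1064) in the first comparison; without silk co-cultures 1 (311), 2 (321) or 3 (207), silk monocultures 2 (308) or 3 (342) or LN/PC monoculture 2 (819) in the second; without LN/PC co-cultures 1 (753) or 3 (1149) or LN/PC monoculture 1 (1133) in the third; without LN/PC co-culture 1 (3415) between co-cultures; and without LN/PC co-cultures 1 (465) or 3 (633) or silk co-culture 3 (725) in the interaction. Equal library totals moved the median of all genes to 0.14, 0.17, -0.13, -0.20 and -0.40 in silk against LN/PC monocultures, silk against LN/PC co-cultures, co-culture on silk, co-culture on LN/PC and fibroblasts, and upper quartile scaling moved it to -0.18 in fibroblasts. The fibroblast share was 0.121% (silk) and 21.1% (LN/PC) when taken from the summed markers. Replicate numbers pair no samples by the labels, and correlations of same-numbered libraries ran from -0.254 to 0.189, 2 of 18 over 0.1. A replicate block gave 9, 25, 4, 13, 12 and 33 members (1317, 4811, 443, 1558, 942 and 8365 genes) in silk against LN/PC monocultures, silk against LN/PC co-cultures, co-culture on silk, co-culture on LN/PC, interaction and fibroblasts; it left out SDC3 from the first and LAMA1 and SDC4 from the third. Levels of a few reads (ITGA11 and NID1 in epithelial groups) limit those folds.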
